A study of Linum usitatissimum with 8 samples.

Results

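In developing seeds of flax (Linum usitatissimum), 37 annotated genes were expressed at a higher level at the first and the last of 4 sampled stages than at both stages in between. They were selected from a table of 40518 genes, of which 38306 carry annotated Lus IDs. Levels are given in CPM, the reads of a gene as a share of all counts of its library, multiplied to a common total. A gene was included if all 4 libraries of DAP5 and DAP30 had at least 5 CPM and the lowest of them was at least 2 times the highest library of DAP10 or DAP20. The low level at DAP10 and DAP20 was therefore what selected the genes, and it is described below without a test. Of the annotated genes, 12685 met the requirement of 5 CPM, and the 37 are those of them that also met the 2-fold requirement.

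The seeds were of the cultivar Heiya No.14, with no treatment named in the labels. The stages are labelled DAP5, DAP10, DAP20 and DAP30, abbreviations the labels do not spell out, and each has 2 libraries. Total counts per library ran from 12951493 to 27691831. The labels do not say whether both libraries of a stage were made from different plants. A p-value here weighs a difference against the spread of these libraries alone, and that spread may be technical.

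A flax seed holds an embryo, an endosperm and a seed coat of maternal origin that forms mucilage. In oilseeds the young seed is a site of cell division and growth, the middle of development is given to the deposition of oil and storage protein, and the last phase brings drying and preparation for dormancy. These tissues grow and shrink at different times. In RNA from whole seeds, fewer cells of a type and less RNA per cell cannot be told apart. The files pair no gene ID with a name, a product or a position, so the genes are given by ID and no role is stated for any of them. Markers of seed tissues could not be checked for the same reason. Nor could genes be set apart that overlap or that share reads with a close copy.

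The 37 genes were of moderate abundance, and their levels fell over a wide range. Their mean over the 4 DAP5 and DAP30 libraries ran from 7.17 to 282 CPM with a median of 31.2 CPM, against a median of 30.7 CPM for the 12685 annotated genes with at least 5 CPM at both stages. It exceeded 100 CPM in 3 genes, lay between 20 and 100 CPM in 25 and was below 20 CPM in 9. Together they held 0.170% and 0.198% of the counts of the 2 DAP5 libraries. Their share was 0.0347% and 0.0392% at DAP10 and 0.0445% and 0.0411% at DAP20, and it was 0.165% and 0.137% at DAP30. The share at DAP30 was thus near that at DAP5, and both were several times the share at the stages between, as the selection requires.

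By the ratio of extremes that the rule used, most of the genes lay near its 2-fold limit. The lowest DAP5 or DAP30 library was between 2 and 2.5 times the highest DAP10 or DAP20 library in 24 of the 37, between 2.5 and 3 times in 9, and above 3 times in 4. The median of this ratio was 2.34 and the highest was 6.19. Over the 12685 genes the median was 0.572, so that in a typical gene the highest of the middle libraries lay above the lowest of the outer ones. The ratio compares extremes, and means differed more. The mean of the 4 outer libraries was 2.41 to 15.1 times the mean of the 4 middle libraries, with a median of 4.37, and it was over 10 times in 6 genes and under 3 times in 5. By stage, the DAP5 mean was 2.16 to 36.3 times the DAP10 mean, with a median of 5.33, and the DAP30 mean was 2.20 to 12.8 times the DAP20 mean, with a median of 3.80.

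**Figure D1:**
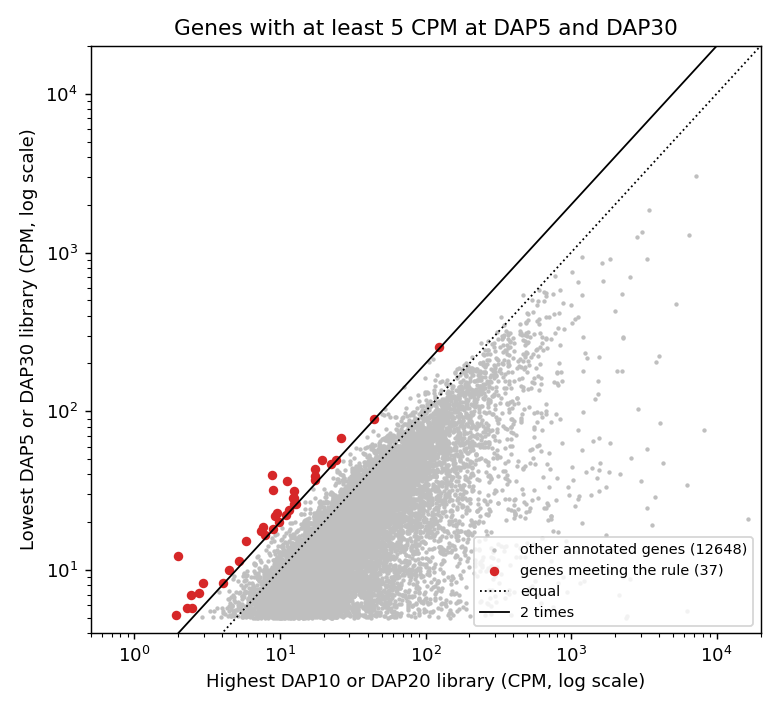
Each point is an annotated gene with at least 5 CPM in all DAP5 and DAP30 libraries, placed by its highest DAP10 or DAP20 library (x, CPM, log scale) and its lowest DAP5 or DAP30 library (y, CPM, log scale). The 37 selected genes lie on or above the line of 2 times, most of them close to it, and the bulk of the 12685 genes lies below the dotted line of equality.

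Lus10041519.g.BGIv1.0 was the most abundant of the 37. Its level was 255 and 266 CPM at DAP5, 87.9 and 110 CPM at DAP10, 111 and 124 CPM at DAP20, and 315 and 294 CPM at DAP30. The DAP5 and DAP30 libraries all lay above those of the middle stages, yet the gene stayed well expressed throughout, and its ratio of lowest outer to highest middle library was 2.05. Per kilobase of the deposited gene length, its mean level at DAP5 and DAP30 was 159 CPM, also the highest of the 37. The gene with the next highest level in CPM, Lus10011089.g.BGIv1.0, had a clearer gap. It stood at 150 and 145 CPM at DAP5, 26.0 and 26.4 CPM at DAP10, 18.1 and 17.2 CPM at DAP20, and 81.7 and 67.6 CPM at DAP30. Its replicates were close at every stage, and on column totals its DAP30 libraries lay between the DAP5 and the middle libraries. On the TMM scaling described below, DAP5 (108 and 99.9 CPM) and DAP30 (103 and 89.3 CPM) overlapped. The log2 fold change from DAP5 to DAP30 was then -0.12 ± 0.14 (SE, edgeR FDR = 0.478).

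The deepest dip by the ratio of extremes was that of Lus10022212.g.BGIv1.0, with a ratio of 6.19. It had 17.7 and 15.3 CPM at DAP5, 1.98 and 1.16 CPM at DAP10, 1.89 and 1.95 CPM at DAP20, and 12.3 and 15.02 CPM at DAP30. Its 4 middle libraries lay between 1.16 and 1.98 CPM, and on column totals its lower DAP5 library nearly met its higher DAP30 library. The values at the middle stages rest on 30 and 15 counts at DAP10 and on 42 and 38 at DAP20. The next deepest was Lus10015720.g.BGIv1.0, with a ratio of 4.55. Its level was 40.8 and 66.5 CPM at DAP5, 1.39 and 1.62 CPM at DAP10, 8.77 and 7.23 CPM at DAP20, and 47.1 and 39.9 CPM at DAP30. Here the lowest point was DAP10, where both libraries had 21 counts, and DAP20 lay between DAP10 and the outer stages.

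**Figure D2:**
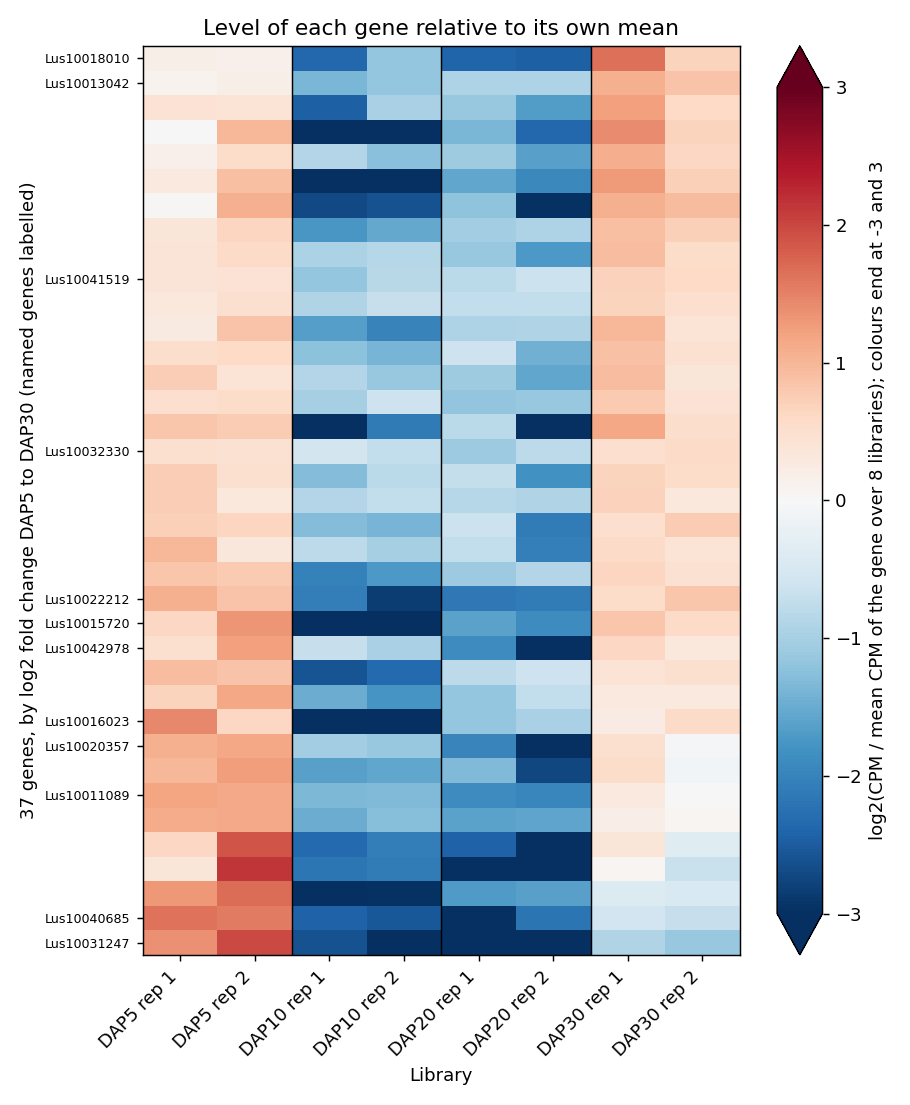
Rows are the 37 genes and columns the 8 libraries, and colour gives log2 of the CPM over the gene's own mean of the 8 libraries. Rows are ordered by the log2 fold change from DAP5 to DAP30 under TMM, with genes higher at DAP30 at the top. Genes such as Lus10031247 and Lus10040685, higher at DAP5, stand at the bottom. Colour uses column totals, on which some genes called higher at DAP30, such as Lus10003869, had a lower mean there. All middle libraries are below the outer ones by selection.

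The dip was not the same in all genes. The selection used the lowest outer and the highest middle library on column totals, so it limits differences between stages on that scale. It did not set DAP5 against DAP30 or DAP10 against DAP20, and these 2 differences were tested. Both were taken from a fit over all genes (edgeR's quasi-likelihood test on counts scaled by TMM, with Benjamini-Hochberg adjustment over 28749 genes and a false discovery rate, FDR, below 0.05). All 37 genes were among those tested, and 36 of them had at least 10 counts in every library.

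Between DAP5 and DAP30, 19 of the 37 genes were higher at DAP30, 3 were lower and 15 were not called. Over all genes tested 31.3% were called higher and 38.9% lower. Among the 12685 annotated genes with at least 5 CPM in all DAP5 and DAP30 libraries, which is the fairer background because the selection required that level, 49.4% were called higher and 19.6% lower. The number of genes higher at DAP30 was thus near that background and is not a result about these genes. The 3 lower are fewer than 19.6% of 37 would give, a difference that was not tested. It is not read as a result about these genes either, since the count changed with the scaling used in the rule. Among the 19 genes that met the rule on TMM-scaled totals, 1 was higher at DAP30 and 6 were lower. The median log2 fold change of the 37 was 0.83, with a range from -1.85 to 1.93, against 0.52 over the 12685 genes and -0.24 over all genes tested.

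The direction of this comparison depends on the scaling. When library totals replaced TMM, 2 of the genes were higher at DAP30 and 10 were lower, against 17.3% higher and 55.4% lower of all genes tested under that scaling. The median of the 37 was then -0.030 and that of all genes tested -1.11. A change of scaling moves all genes by nearly the same amount. The distance of the 37 from the median of all genes, 1.07 under TMM, thus stays as it was by construction. Against the fairer background of 12685 genes the medians under TMM were closer, 0.83 and 0.52. Under library totals the calls in that background were not counted, for this comparison or the next. Without DAP30 replicate 1, 10 of the 37 were called higher, and the share called higher of all genes tested was 26.1% in that fit. In CPM, the DAP5 mean was within 0.5 to 2 times the DAP30 mean in 31 genes, above 2 times in 5 and below 0.5 times in 1.

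The largest rise from DAP5 to DAP30 was that of Lus10018010.g.BGIv1.0. It had 44.2 and 43.5 CPM at DAP5, 7.66 and 17.5 CPM at DAP10, 7.33 and 7.08 CPM at DAP20, and 123 and 61.3 CPM at DAP30. Both DAP30 libraries were above both DAP5 libraries, but they were far apart. The log2 fold change was 1.93 ± 0.41 (SE, edgeR FDR = 0.00372), or 1.07 with library totals (FDR = 0.0458). Its range was 1.39 to 2.30 with single libraries left out. Lus10013042.g.BGIv1.0 had 18.1 and 19.0 CPM at DAP5, 6.53 and 7.57 CPM at DAP10, 8.90 and 8.92 CPM at DAP20, and 35.6 and 30.5 CPM at DAP30. Its replicates were close, and its log2 fold change was 1.71 ± 0.16 (SE, edgeR FDR = 5.91e-05), or 0.84 with library totals (FDR = 0.00251). These were the 2 genes that remained higher at DAP30 under library totals.

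In the opposite direction, Lus10031247.g.BGIv1.0 fell most from DAP5 to DAP30. Its level was 47.1 and 72.3 CPM at DAP5, 2.97 and 2.08 CPM at DAP10, 2.25 and 1.79 CPM at DAP20, and 9.76 and 8.27 CPM at DAP30. At DAP30 it had thus regained only a small part of its DAP5 level, though both libraries stood clear of the middle stages. The log2 fold change was -1.85 ± 0.25 (SE, edgeR FDR = 0.000426), and it was -2.73 with library totals. Lus10040685.g.BGIv1.0 had a like profile, with 34.8 and 33.3 CPM at DAP5, 2.11 and 1.93 CPM at DAP10, 1.39 and 2.46 CPM at DAP20, and 7.64 and 6.998 CPM at DAP30. Its log2 fold change was -1.35 ± 0.26 (SE, edgeR FDR = 0.00252), and -2.22 with library totals. In a test against a 2-fold change the FDR of Lus10040685.g.BGIv1.0 was 0.0718. The third gene called lower at DAP30, Lus10017375.g.BGIv1.0, was singled out after its values were seen. It had means of 153 CPM at DAP5, 5.12 CPM at DAP10, 17.0 CPM at DAP20 and 39.7 CPM at DAP30, and it was the only one of the 3 that was also called between DAP10 and DAP20, where it was higher at DAP20.

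**Figure D3:**
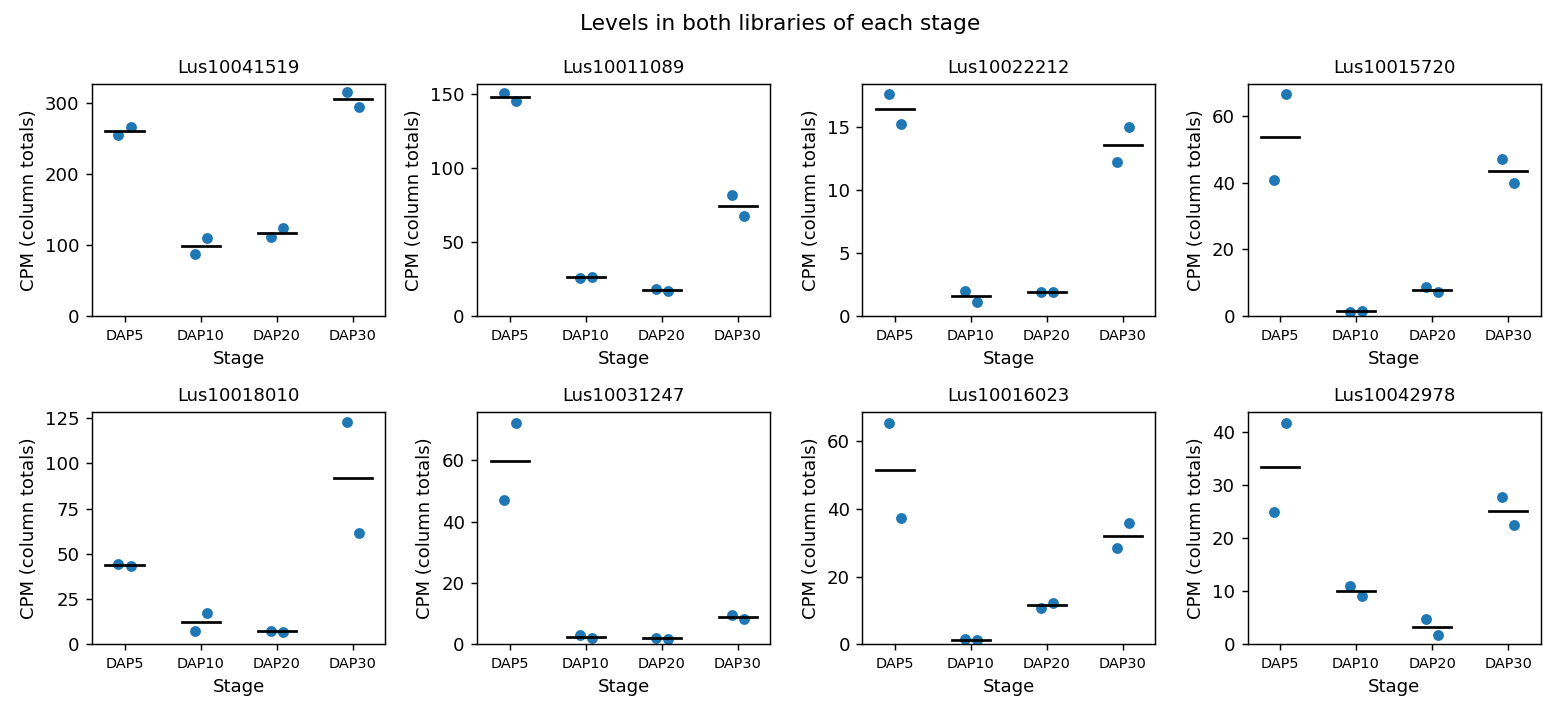
Level in CPM (y, from 0, a separate scale for each gene) of 8 of the named genes at the 4 stages (x); points are the 2 libraries of a stage and bars their mean. Lus10031247 is far below its DAP5 level at DAP30, Lus10018010 has 2 DAP30 libraries far apart (123 and 61.3 CPM), and Lus10016023 and Lus10015720 are lowest at DAP10.

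Between DAP10 and DAP20, at the bottom of the dip, 13 of the 37 genes were higher at DAP20, 2 were lower and 22 were not called. Of all genes tested 25.5% were called higher and 27.8% lower, and of the 12685 genes with at least 5 CPM in all DAP5 and DAP30 libraries 38.8% and 16.4%. The count of higher genes was again near the second background. The median log2 fold change of the 37 was 0.46, with a range from -1.37 to 3.41, against 0.33 over the 12685 genes and -0.032 over all genes tested. Without DAP20 replicate 1 the median of the 37 was 0.25. With library totals 9 genes were higher and 3 lower, against 15.9% higher and 37% lower of all genes tested. The median of the 37 was then 0.064 and that of all genes tested -0.42.

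Lus10016023.g.BGIv1.0 rose most in this step. It had 65.4 and 37.3 CPM at DAP5, 1.52 and 1.31 CPM at DAP10, 10.8 and 12.2 CPM at DAP20, and 28.6 and 35.7 CPM at DAP30. Its DAP10 values rest on 23 and 17 counts, and both DAP20 libraries lay far above them. The log2 fold change from DAP10 to DAP20 was 3.41 ± 0.36 (SE, edgeR FDR = 0.000273), with a range of 3.01 to 3.52 over the alternatives. Lus10015720.g.BGIv1.0, whose values are given above, rose by 2.80 ± 0.28 on the log2 scale (SE, edgeR FDR = 0.000223), with a range of 2.41 to 2.91. In both genes the level began to return before DAP30.

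The 2 genes that fell from DAP10 to DAP20 did so with less certainty. Lus10042978.g.BGIv1.0 had 24.8 and 41.7 CPM at DAP5, 11.02 and 9.11 CPM at DAP10, 4.81 and 1.74 CPM at DAP20, and 27.7 and 22.4 CPM at DAP30. The log2 fold change from DAP10 to DAP20 was -1.22 ± 0.44 (SE, edgeR FDR = 0.0482), and it was -2.13 without DAP20 replicate 1 and -0.70 without DAP20 replicate 2. Lus10020357.g.BGIv1.0 had 55.2 and 58.8 CPM at DAP5, 12.9 and 12.04 CPM at DAP10, 6.66 and 3.28 CPM at DAP20, and 36.97 and 25.9 CPM at DAP30. Its log2 fold change was -0.93 ± 0.31 (SE, edgeR FDR = 0.0377), -1.52 without DAP20 replicate 1 and -0.54 without DAP20 replicate 2. In both genes the DAP20 libraries differed by more than the DAP10 libraries, and neither was called without DAP10 replicate 1, DAP10 replicate 2 or DAP20 replicate 2 (FDR from 0.0922 to 0.175). The call was also lost for the first without DAP5 replicate 2 or either DAP30 library, and for the second without either DAP5 library. Over the alternatives the FDR ran from 0.0035 to 0.339 for the first gene and from 0.00222 to 0.638 for the second.

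Set side by side, the 2 comparisons divided the genes as follows. Those higher at DAP30 than at DAP5 and also higher at DAP20 than at DAP10 numbered 9, and 10 were higher at DAP30 with no call between the middle stages. A further 10 were called in neither comparison. Of the rest, 3 were higher at DAP20 only, 2 were lower at DAP20 only and 2 were lower at DAP30 only. The last 1 was lower at DAP30 and higher at DAP20. Joint calls were not counted over all genes tested or over the 12685 genes. The division is therefore not read as a result about these genes. The 2 comparisons share no library, but both come from the same fit.

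**Figure D4:**
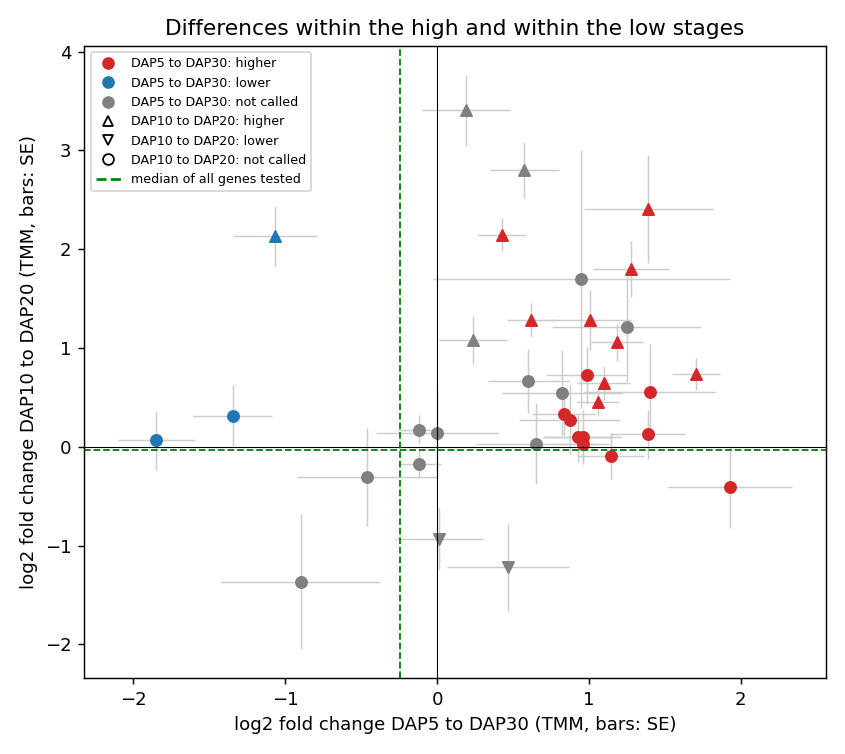
Each of the 37 genes is placed by its log2 fold change from DAP5 to DAP30 (x) and from DAP10 to DAP20 (y), both under TMM with bars for the SE; colour gives the call of the first comparison and shape that of the second, and dashed lines give the medians of all genes tested (-0.24 and -0.032). Right of the vertical dashed line lie 32 of the 37 points. The median of the 12685 genes with at least 5 CPM at DAP5 and DAP30, 0.52 on this axis, is not drawn. The 3 genes called lower at DAP30 lie on the left and the 2 called lower at DAP20 lie below, in both cases with others not called.

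How far a gene met the 2-fold requirement also depended on the scaling. The ratio of the lowest outer to the highest middle library was at or above 2 under TMM in 12 of the 37 and below 2 in 25. It stayed above 1 in all 37, with a lowest value of 1.20, so that under either scaling every DAP5 and DAP30 library lay above every DAP10 and DAP20 library. The TMM factor, by which a library total is multiplied, was 1.39 and 1.45 at DAP5, 1.09 in both DAP10 libraries, 0.839 and 0.824 at DAP20, and 0.795 and 0.757 at DAP30. Applied to all annotated genes with CPM on TMM-scaled totals, the rule was met by 19 genes, of which 12 were among the 37. Those 12 included both genes with the deepest dip, Lus10022212.g.BGIv1.0 and Lus10015720.g.BGIv1.0, with ratios under TMM of 4.45 and 2.81. Lus10011089.g.BGIv1.0, Lus10031247.g.BGIv1.0 and Lus10040685.g.BGIv1.0 were also among them, with ratios of 3.70, 4.01 and 3.09. Lus10041519.g.BGIv1.0 was not, with a ratio of 1.21. With these factors, TMM lowers all DAP5 and DAP10 levels and raises all DAP20 and DAP30 levels. Which genes stay at 2 or above thus depends in part on their difference between DAP5 and DAP30. It also depends on which stages hold the lowest outer and the highest middle library.

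**Figure D5:**
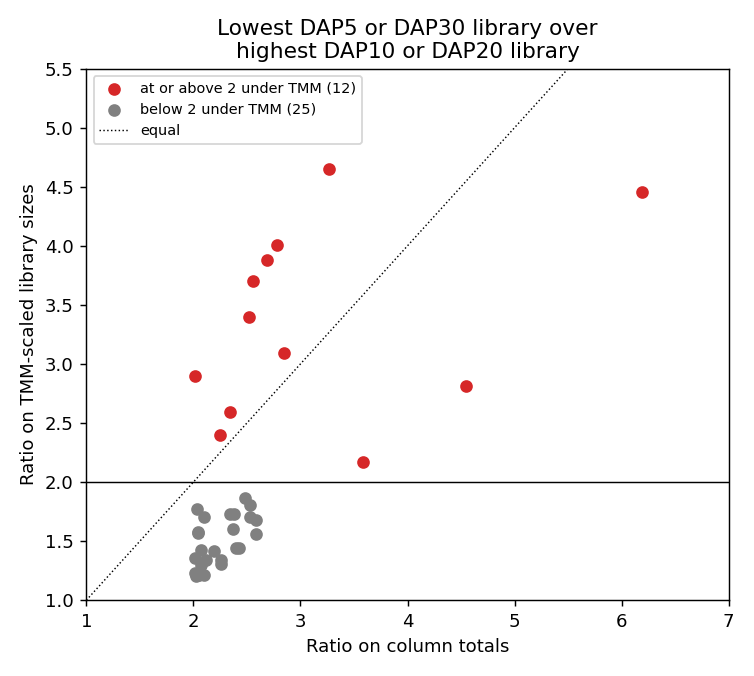
For each of the 37 genes, the ratio of the lowest DAP5 or DAP30 library to the highest DAP10 or DAP20 library on column totals (x) and on TMM-scaled totals (y). The 12 genes in red stay at or above 2 under TMM and the 25 in grey drop below it, but none drops below 1.

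Fewer genes showed this pattern than its mirror image. A rule turned around, with all DAP10 and DAP20 libraries at 5 CPM or more and the lowest of them at least 2 times the highest DAP5 or DAP30 library, was met by 59 annotated genes, against the 37 described here. Under TMM the numbers were 83 and 19. How many annotated genes had 5 CPM in all DAP10 and DAP20 libraries was not counted, so these numbers are not compared as shares. Near the limit of the rule, Lus10032330.g.BGIv1.0 was just inside with a ratio of 2.012, its lowest outer library at 8.23 CPM and its highest middle library at 4.09 CPM. Lus10020357.g.BGIv1.0 was inside as well with 2.011. Just outside were Lus10020702.g.BGIv1.0 with 1.998, from 17.96 CPM against 8.99 CPM, and Lus10010274.g.BGIv1.0 with 1.983, from 141 CPM against 71.3 CPM. Differences of this size are far within the spread between replicates.

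Of the properties that the rule did not use, gene length was unremarkable. The deposited length of the 37 had a median of 2100 and ran from 782 to 3785, against medians of 2393 for the 12685 genes and 2011 for all genes tested. The definition and unit of the length were not given in the sources used here. Per kilobase of that length, taken as bases, the mean level at DAP5 and DAP30 had a median of 14.3 CPM, against 12.5 CPM over the 12685 genes.

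Replicates of the 37 genes differed more than those of the 12685 genes at every stage. The larger replicate was a median of 1.20 times the smaller at DAP5, 1.17 times at DAP10, 1.30 times at DAP20 and 1.23 times at DAP30, against 1.14, 1.09, 1.20 and 1.15 times over the 12685 genes, a difference that was not tested. A difference above 2-fold between replicates occurred in 3 of the 37 genes at DAP5, 4 at DAP10, 9 at DAP20 and none at DAP30, against 1.73%, 0.339%, 4.57% and 0.481% of the 12685. At DAP10 and DAP20 this comes beside fewer reads, with a median of 117 counts per gene and library and a lowest of 1, and the part of depth in it was not tested. The least certain member was Lus10014028.g.BGIv1.0, singled out after its values were seen. It had 1 and 12 counts at DAP10 and 51 and 1 at DAP20, against 189 and 188 at DAP5 and 190 and 96 at DAP30, and its levels were 0.066 and 0.927 CPM at DAP10 and 2.29 and 0.0513 CPM at DAP20.

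At DAP30, replicate 1 was above replicate 2 in 32 of the 37 genes, against 66.2% of the 12685. The lowest outer library was one of DAP30 in 22 genes and one of DAP5 in 15, and the highest middle library was one of DAP20 in 20 and one of DAP10 in 17. Without DAP30 replicate 2 the rule was met by 57 genes, the 37 among them.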

How the data were processed

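The deposited table gives unnormalized read counts of 8 libraries, as whole numbers, and a gene length. Per the labels' protocols, TRIzol was used for RNA extraction and the NEBNext Ultra RNA kit for the libraries. The aligner, counting tool, genome build and strand setting were not given in the sources used here. Columns were matched to samples by the library code in the labels. CPM used column totals over all rows. The analysis used R 4.3.3 with edgeR 4.0.16: filterByExpr (minimum count 10, minimum total 15), TMM scaling, and 1 quasi-likelihood fit over all 8 libraries with stage as the only term. The standard error of a log2 fold change is its size over the square root of F. The test was first tried on simulated counts in which far fewer genes changed than were called here. No result above rests on that trial. Alternatives used DESeq2 1.42.0 and limma 3.58.1 (limma-voom).

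Genes named are, among the 37, the 2 most abundant at DAP5 and DAP30, the 2 with the deepest dip, the 2 largest rises and falls in each comparison (FDR below 0.05, no overlap of the libraries of the 2 stages under TMM), and the 2 on either side of the 2-fold limit. The members, lists and tests were chosen with earlier results of these data known. Lists by gene function were not used, since no ID is paired with a name. No sequences were used.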

Additional observations from a re-analysis of the deposited data

How the results depend on the processing

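The rule was met by 19 genes on TMM-scaled totals and by 19 on DESeq2 size factors, by 122 with a 1.5-fold and 4 with a 3-fold requirement, and by 39 to 57 with each library left out. The median ratio of the 37 was 1.70 on TMM-scaled totals and 2.37 to 2.48 with each library left out. For DAP5 to DAP30, genes higher and lower numbered 2 and 10 with library totals, 3 and 1 when tested against a 2-fold change, and 1 and 6 among the 19 genes chosen on TMM-scaled totals. With each library left out they ran from 10 to 23 and from 2 to 4, and the median log2 fold change ran from 0.69 to 0.88, against -0.030 with library totals. For DAP10 to DAP20, genes higher numbered 6 in the test against a 2-fold change, 3 among the genes chosen on TMM-scaled totals, and 9 to 15 with each library left out. Genes lower numbered 1 by limma-voom, 0 in edgeR's test against a 2-fold change (0 at an unadjusted p under 0.05), 0 by edgeR with only the 2 stages in the fit (1 at an unadjusted p under 0.05), and 0 to 2 with each library left out, against 2 by DESeq2. The median was 0.064 with library totals and 0.25 to 0.62 with each library left out. A fit that leaves 1 library at a stage assumes that it varies like the others. The shares called of all genes tested changed with the fit as well. Tested against a 2-fold change, 19% of all genes were higher and 28.7% lower at DAP30 than at DAP5, against 31.3% and 38.9% as reported. Between DAP10 and DAP20 the shares were 10% and 16.1%, against 25.5% and 27.8%. Changes in the counts of the 37 are therefore not read as results about these genes. Of all refitted counts and medians, those listed above included, 85 stayed near the values reported and 27 did not. Near meant within 1.5 times for counts. For medians it meant within the median SE of the genes for fold changes, or within the spread between replicates for the ratio. The 8 rises and falls named for the 2 comparisons kept their direction in 120 refits, but that of other named genes can turn with the scaling: Lus10022212.g.BGIv1.0, not called, had a log2 fold change from DAP5 to DAP30 of 0.60 under TMM and means of 16.5 and 13.6 CPM. Apart from the scaling, the causes were not tested. Whether the replicate numbers pair libraries was not settled. Correlations of their deviations between stages were negative in 2 of 6 pairs of stages and above 0.1 in 2. The highest was 0.158, between DAP20 and DAP30. With the replicate block 1 gene was lower at DAP20, Lus10042978.g.BGIv1.0 having an FDR of 0.0537, and no other call counted here moved by over 1.5 times.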

Other observations

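Gene models added by the authors were not eligible for the selection, and 1 of the 2212 met the same limits. Linumusitatissimum_newGene_3573 had 335 and 379 CPM at DAP5, 80.9 and 75.4 CPM at DAP10, 137 and 160 CPM at DAP20, and 438 and 324 CPM at DAP30, a ratio of 2.02. Its level at DAP5 and DAP30 was above that of every one of the 37 annotated genes.

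Among the 37 genes, 2 pairs had the same deposited length, which was seen in the data and not looked for. Lus10003869.g.BGIv1.0 and Lus10017375.g.BGIv1.0, both of length 2098, had means of 62.7 and 153 CPM at DAP5, 9.83 and 5.12 CPM at DAP10, 18.2 and 17.0 CPM at DAP20, and 52.7 and 39.7 CPM at DAP30. From DAP5 to DAP30 the first was called higher and the second lower under TMM, with log2 fold changes of 0.62 and -1.07, although the mean CPM of both was lower at DAP30. Both were called higher at DAP20 than at DAP10. Lus10021676.g.BGIv1.0 and Lus10028207.g.BGIv1.0, both of length 2091, had means of 39.0 and 17.998 CPM at DAP5, 15.6 and 4.89 CPM at DAP10, 12.1 and 6.17 CPM at DAP20, and 41.5 and 19.5 CPM at DAP30, and both were called higher at DAP30 than at DAP5 under TMM. Whether the genes of a pair are copies of each other was not tested, and an equal length alone does not show it.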
